A study of Mus musculus with 12 samples.

Results

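Gonadal white fat of mice labelled Gadd45a-KO was compared with that of mice labelled wild type (WT), over all probes of 3 arrays labelled Gadd45a-KO and 3 arrays labelled WT, which are 6 of the 12 arrays of the series. The mice were males of the C57BL/6N strain aged 59 to 67 days, from a cross of Gadd45a-deficient with Ing1-deficient animals. By the labels, the Gadd45a-KO group carried the genotype Gadd45a-/- and the WT group neither mutation. RNA of 3 animals was pooled on each array, so that 9 animals stood behind each genotype and the spread between arrays is a spread between pools. The other 6 arrays were labelled Ing1-KO (Ing1-/-) and DKO (Gadd45a-/-;Ing1-/-), and they are used here for a second, separate comparison. Whole fat was homogenised, so it held fat cells, stromal cells, vessels and blood cells, and fewer cells of a type cannot be told apart from less RNA per cell.

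Gadd45a is a small stress-induced protein. It binds PCNA and the kinase MAP3K4, which feeds the p38 and JNK kinases, it is a target gene of p53, and it has been tied to DNA repair and to active DNA demethylation through TET and TDG enzymes. ING1 is a chromatin reader that recognises methylated histone H3, and has been described as a partner that brings Gadd45a to its target genes. White fat stores and releases lipid, and its stroma holds macrophages, dendritic cells, lymphocytes and, in inflamed fat, neutrophils.

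The Gadd45a probe did not read low in the arrays labelled Gadd45a-KO. Its normalized log2 signal was 9.33, 9.80 and 9.41 in the WT arrays and 10.27, 10.19 and 10.05 in the arrays labelled Gadd45a-KO. All 3 of the latter lay above all 3 WT arrays, by 0.66 ± 0.13 on the log2 scale (standard error), or 1.58-fold. In the other arrays the probe read 9.30, 9.25 and 9.06 in Ing1-KO and 10.60, 10.62 and 10.61 in DKO, so it was higher in both groups labelled as lacking Gadd45a. Where this probe lies with respect to the targeted exons is not given in the sources used here, so it does not check the labels. Directions below are those of arrays labelled Gadd45a-KO. The Ing1 probe read 12.37 to 12.78 in the WT arrays and arrays labelled Gadd45a-KO and 9.13 to 9.60 in the other 6, as labelled.

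A set of neutrophil granule genes stood several-fold higher in the arrays labelled Gadd45a-KO. Neutrophils make these proteins while they mature in the bone marrow, in waves that are driven by C/EBP factors and by the ETS-family factor PU.1. The 3 promoters below are shown because Camp, Ngp and Ltf, which encode a cathelicidin, a neutrophilic granule protein and lactoferrin of the specific granules, lay 2.69 to 3.43 higher on average on the log2 scale and all sit on chromosome 9. Each is the 250 bases before the transcription start, from RefSeq on GRCm38.p6, with matches to TTGCNNAA (a C/EBP-type motif) or GAGGAA (an ETS-type core), on either strand, in capitals.
Camp, chr9:109849457-109849706, minus strand: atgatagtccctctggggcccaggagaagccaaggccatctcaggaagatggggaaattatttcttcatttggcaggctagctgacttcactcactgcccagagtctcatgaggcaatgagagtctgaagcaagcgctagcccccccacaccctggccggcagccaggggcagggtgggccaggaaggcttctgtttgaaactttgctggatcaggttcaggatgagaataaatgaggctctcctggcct
Ngp, chr9:110419558-110419807, plus strand: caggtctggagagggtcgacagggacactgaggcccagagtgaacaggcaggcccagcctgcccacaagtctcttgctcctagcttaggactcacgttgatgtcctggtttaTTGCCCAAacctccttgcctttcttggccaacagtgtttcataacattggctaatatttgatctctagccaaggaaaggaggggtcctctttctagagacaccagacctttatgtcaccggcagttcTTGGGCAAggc
Ltf, chr9:111019042-111019291, plus strand: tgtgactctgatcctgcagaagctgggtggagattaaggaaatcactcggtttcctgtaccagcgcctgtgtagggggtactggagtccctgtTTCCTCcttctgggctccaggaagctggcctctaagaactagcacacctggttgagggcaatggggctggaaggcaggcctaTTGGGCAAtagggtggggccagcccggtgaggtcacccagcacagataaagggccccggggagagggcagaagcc
The Ngp window held TTGCNNAA at 2 places, whose first bases lay 138 and 11 bases before the start. The Ltf window held it at 1 place, 75 bases before the start, and GAGGAA at 1 place, 157 bases before. The Camp window held neither motif, which says only that these letters are not in it. Of all 32851 windows of this length, 9.56% held TTGCNNAA and 23.3% held GAGGAA. Of 25 tested genes of the neutrophil list with a window, 5 held TTGCNNAA and 15 held GAGGAA. These matches describe the letters and are not sites shown to be bound.

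The 6 arrays were of like depth, with 1 exception. Between 58.2% and 68.1% of spots were well above background, no spot was saturated, and the 75th percentile of the signal lay between 456 and 792. WT replicate 2 was the dimmest of the 12 arrays, with a median signal of 39.3 against 54.8 to 64.4 in the other 5. It stood apart from the other WT arrays in the fat cell lists and the natural killer list, as given below. The replicate number is also the slide, so that slides 1, 2 and 3 each held 1 array of each group, and differences within a slide are given where they matter. The defining genes of fat cells were among the brightest, with Fabp4 at 17.88 to 18.55 and Adipoq at 16.32 to 17.43.

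No gene passed the threshold of an adjusted p under 0.05 between the groups. With limma, 0 of 31453 genes and unnamed probes were called (0.0%), the smallest adjusted p was 0.719, and 739 had an unadjusted p under 0.05 (2.35%) where chance alone gives 1572.7. The values of the 2 groups did not overlap for 2538 of them (8.07%), of which 1728 were higher in the arrays labelled Gadd45a-KO (5.49%) and 810 lower (2.58%). A log2 difference beyond 1 was reached by 231 upward and by 99 downward. Most differences were small, with a median of 0.0, percentiles 5 and 95 at -0.398 and 0.405, 15713 features on the positive side, and a median standard error of 0.214. The differences below are therefore given as values and none is a call. With 3 arrays a group, the smallest p that exact permutation allows is 0.1.

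Among the 12 named genes with the smallest p on the higher side were dendritic cell, chemokine, prostaglandin and neutrophil genes. They were Cd207, Ccl12, Pla2g4a, Slco2a1, Camp, Epb41l3, Gadd45a, Ccl8, Clec4e, Cyb561, S100a9 and Smc1b, with log2 differences of 0.45 to 3.25. In 12 of 12 the groups did not overlap, which follows from choosing by small p. The adjusted p of the 12 lay between 0.7193 and 0.9997 with limma.

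Cd207 encodes langerin, the C-type lectin of Langerhans cells and some dermal and migratory dendritic cells. Its normalized log2 signal was 6.82, 6.59 and 6.82 in WT and 7.97, 8.76 and 8.70 in the arrays labelled Gadd45a-KO. The lowest of the latter lay more than 1 log2 unit above the highest WT array, and the difference was 1.74 ± 0.26, or 3.34-fold. It was 1.16, 2.17 and 1.88 within slides 1, 2 and 3.

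The chemokines Ccl12 and Ccl8 draw monocytes and lymphocytes, and Ccl12 signals through CCR2. Ccl12 read 9.80, 9.78 and 9.90 in WT against 10.87, 10.66 and 10.64, a tight pair of groups that differed by 0.90 ± 0.15. Ccl8 read 13.60, 12.92 and 13.36 in WT against 14.83, 14.93 and 14.35, and differed by 1.40 ± 0.29. Of the 16 measured genes of the CC chemokine and receptor list, 13 were positive, where 15713 of all 31453 features were. The list median was 0.19, and Ccl12 and Ccl8 were the 2 whose groups did not overlap upward (background 5.49%). Ccr2 differed by 0.29 ± 0.19 and Ccl5 by 0.23 ± 0.30. The list's median was -0.17 within slide 1 and 0.43 without WT replicate 1.

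Prostaglandin genes stood on both sides. Pla2g4a, the cytosolic phospholipase that frees arachidonic acid, read 8.76, 8.74 and 8.68 in WT and 9.32, 9.34 and 9.29, and differed by 0.59 ± 0.11. Slco2a1, the transporter that takes prostaglandins into cells, read 9.66, 9.49 and 9.32 in WT and 10.26, 10.03 and 10.29, and differed by 0.71 ± 0.13. Neither gene's groups overlapped, and Pla2g4a had nearly the same difference within each slide, 0.56, 0.60 and 0.61. Ptgs2, the inducible cyclooxygenase, was well above background on no WT array and on 2 of the 3 arrays labelled Gadd45a-KO. In the main processing it was at least 1.14-fold higher, with measured means 0.81 apart on the log2 scale. The difference was 0.11 with normexp background correction, so that bound did not hold there. Pla2g2e, a secreted phospholipase, went the other way with -0.79 ± 0.34, and its groups overlapped. Over the 27 measured genes of the list 14 were positive, 6 did not overlap upward and 1 downward (background 5.49% and 2.58%), and the median was 0.09.

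The other genes of the 12 had varied roles. Clec4e, the macrophage lectin Mincle, read 6.61, 6.14 and 6.19 in WT and 7.38, 7.49 and 7.40, and differed by 1.11 ± 0.24. Epb41l3, a membrane skeleton protein, read 9.56, 9.52 and 9.57 in WT and 10.03, 10.15 and 9.99, and differed by 0.51 ± 0.10. Cyb561, an ascorbate-dependent electron carrier of vesicles, differed by 0.45 ± 0.10, and Smc1b, a meiotic cohesin subunit read near the background, by 1.20 ± 0.29, or 0.56 with normexp background correction.

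**Figure D1:**
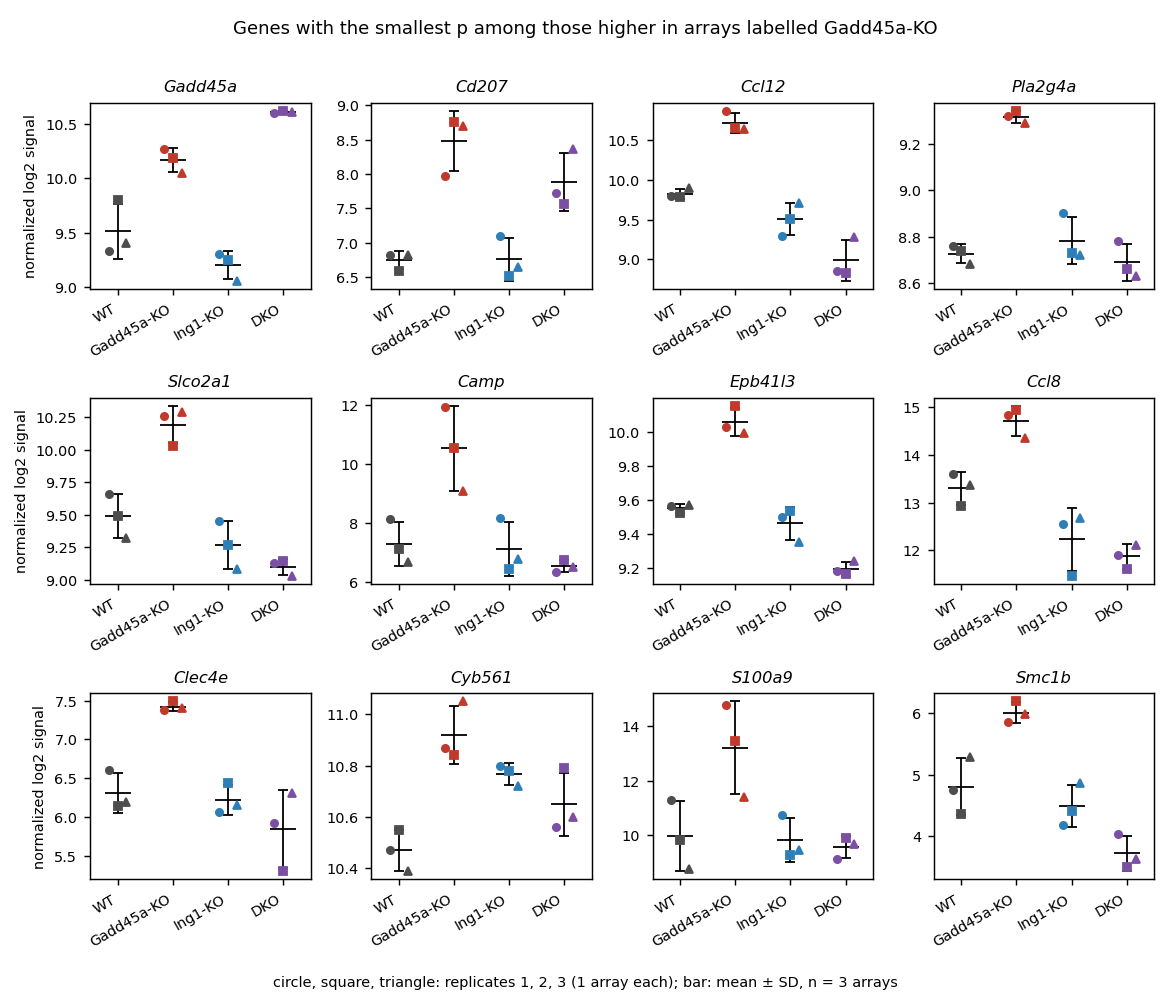
Normalized log2 signal of the 12 named genes with the smallest p on the higher side, by array, in the 4 genotypes (symbols are replicates, bars the mean ± SD of 3 arrays). The arrays labelled Gadd45a-KO lie above the WT arrays in each panel, and in DKO only Gadd45a and Cd207 lie above their Ing1-KO controls without overlap.

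The 12 named genes with the smallest p on the lower side were Ide, Pdgfrl, Orm3, Ywhag, Fgfbp3, Amotl1, Nanog, Prkce, Inmt, Orm2, Rbp4 and Nudt18, with log2 differences of -0.38 to -1.36. In 10 of the 12 the groups did not overlap, and Orm2 and Rbp4 overlapped. Their adjusted p was 0.9997 in limma for each of the 12.

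Several of these genes act in metabolism. Ide, the insulin-degrading enzyme, read 11.03, 11.50 and 10.60 in WT and 10.37, 10.24 and 10.12, and differed by -0.80 ± 0.20. Rbp4, the retinol carrier that fat cells secrete, read 15.97, 16.41 and 15.63 in WT and 15.72, 15.24 and 14.86, a difference of -0.73 ± 0.23 with 1 array labelled Gadd45a-KO inside the WT range. Inmt, a methyltransferase of indole amines, read 11.49, 12.54 and 11.80 in WT and 10.62, 11.0 and 10.13, and differed by -1.36 ± 0.42. Orm2 and Orm3 encode orosomucoids, acute phase plasma proteins, and differed by -0.79 ± 0.25 and -0.71 ± 0.20, with Orm3 at -0.47 without WT replicate 2. The orosomucoid genes are close copies, so their probes may share signal.

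Others act in signalling and growth. Pdgfrl, a gene like the PDGF receptors, read 8.70, 9.10 and 8.58 in WT and 8.04, 7.74 and 7.72, and differed by -0.95 ± 0.25. Prkce, the epsilon isoform of protein kinase C, had the tightest WT group, 8.19, 8.19 and 8.20, against 7.91, 7.77 and 7.60, and differed by -0.43 ± 0.13. Ywhag, an adaptor that binds phosphorylated proteins, differed by -0.38 ± 0.11, Fgfbp3, a carrier of fibroblast growth factors, by -0.76 ± 0.22, and Amotl1, a junction protein, by -0.58 ± 0.17, or -0.27 with normexp. Nanog, a transcription factor of pluripotent cells with many pseudogene copies, differed by -0.51 ± 0.15, and Nudt18, a nucleotide hydrolase, by -1.04 ± 0.33. Nudt18 differed by -0.32 with normexp background correction and by -0.61 in the authors' values. For 7 of the 12, Ide, Pdgfrl, Orm3, Orm2, Fgfbp3, Nanog and Rbp4, WT replicate 2 was the highest of the WT arrays and the within-slide difference was largest on slide 2.

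**Figure D2:**
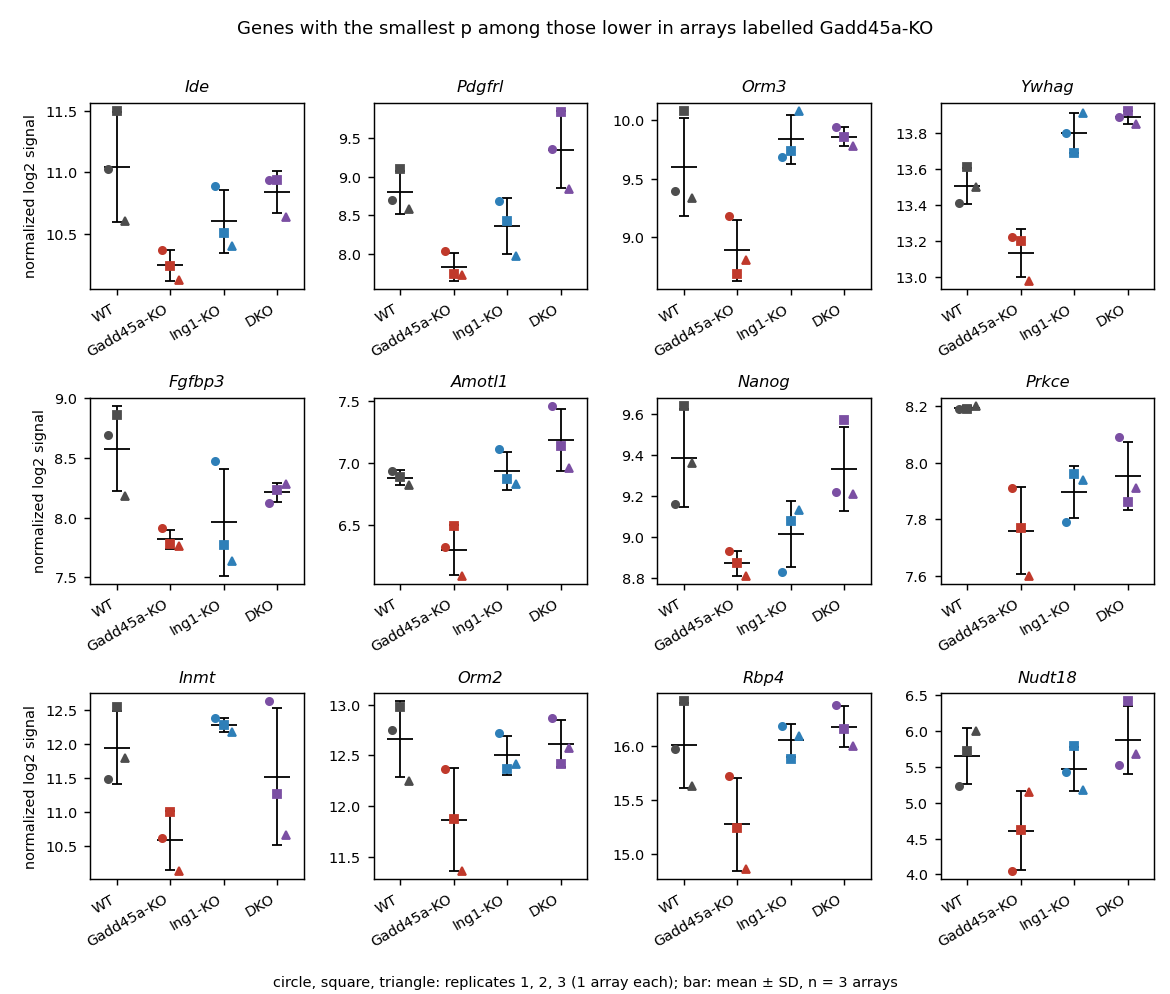
Normalized log2 signal of the 12 named genes with the smallest p on the lower side, by array (symbols are replicates, bars the mean ± SD of 3 arrays). The arrays labelled Gadd45a-KO lie below the WT arrays except for Orm2 and Rbp4, where 1 array overlaps, and DKO lies below Ing1-KO on average for Inmt alone.

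Neutrophil genes were higher in the arrays labelled Gadd45a-KO, and most in replicate 1. Camp read 8.13, 7.11 and 6.68 in WT and 11.94, 10.55 and 9.08, a difference of 3.22 ± 0.64 or 9.30-fold, and a second probe gave 2.59. Ngp read 5.42, 5.12 and 3.16 in WT and 9.43, 8.20 and 6.37, a difference of 3.43 ± 0.89, or 1.82 with normexp background correction. S100a9 and S100a8, the 2 subunits of calprotectin, differed by 3.25 ± 0.78 and 2.99 ± 0.81. S100a9 read 11.30, 9.84 and 8.76 in WT and 14.79, 13.45 and 11.40, so the highest WT array lay only just below the lowest of the others, and S100a8 overlapped.

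The array labelled Gadd45a-KO replicate 1 was the highest, and replicate 3 the lowest of its group, for other neutrophil genes too. Chil3, a chitinase-like protein, read 10.46, 9.90 and 7.58 in the arrays labelled Gadd45a-KO against 7.99, 6.14 and 5.76. Mpo, myeloperoxidase of the azurophil granules, read 10.86, 8.49 and 7.13 against 6.79, 6.40 and 6.94, and Ctsg, cathepsin G, read 9.79, 7.20 and 6.37 against 6.34, 5.25 and 5.69. Ltf read 10.40, 8.98 and 6.87 against 6.20, 7.81 and 4.18, and its groups overlapped. Cebpe, the transcription factor of late granule genes, read 8.23, 6.71 and 5.96 against 5.78, 5.85 and 5.13 and differed by 1.38 ± 0.48, or 0.75 without Gadd45a-KO replicate 1. Its groups did not overlap.

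Some neutrophil genes differed by less, and Cxcr2, Ltb4r1 and Padi4 had little spread between the arrays labelled Gadd45a-KO. Cxcr2, the receptor for neutrophil-attracting chemokines, read 8.43, 7.96 and 7.97 in WT and 8.90, 8.85 and 8.91, a difference of 0.76 ± 0.20. Ltb4r1, the leukotriene B4 receptor, differed by 0.66 ± 0.16, and Padi4, which citrullinates histones, by 0.87 ± 0.24. Padi4 spread more in WT, at 6.28, 5.50 and 5.41, and differed by 0.55, 1.04 and 1.01 within slides 1, 2 and 3. A second, dim Padi4 probe gave -0.12. Csf3r, the G-CSF receptor, differed by 0.06 ± 0.12, and Trem1, an amplifying receptor of myeloid cells, by -0.39 ± 0.14 without overlap.

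Over the list of 32 neutrophil genes, 31 had a probe and 28 were tested. Of these 24 were positive, and the median difference was 0.82 against 0.0 over all features tested. With limma 14 of the 28 had an unadjusted p under 0.05, 13 higher and 1 lower (background 1.54% and 0.808%). The groups did not overlap upward for 8 of the 28 and downward for 1, and the background shares are 5.49% and 2.58%. Mmp8, Stfa2l1 and Trem3 were too dim to test. As a mean deviation from each gene's average over all 12 arrays, the list stood at 0.18, -0.11 and -0.56 in WT and at 1.62, 0.98 and 0.36 in the arrays labelled Gadd45a-KO. The other 6 arrays lay between -0.61 and -0.02. The median was 0.69, 0.96 and 0.88 within slides 1, 2 and 3, and 0.67 to 0.85 with single arrays left out, but 0.49 with normexp background correction, 0.54 in the authors' values and 0.29 over the 20 members above background on all 12 arrays. Red cell transcripts stood at -0.16, -0.01 and -0.05 in WT and at 0.03, -0.30 and -0.66 in the arrays labelled Gadd45a-KO, with 0 of 11 positive and a median of -0.18. Their part in the neutrophil difference was not tested.

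**Figure D3:**
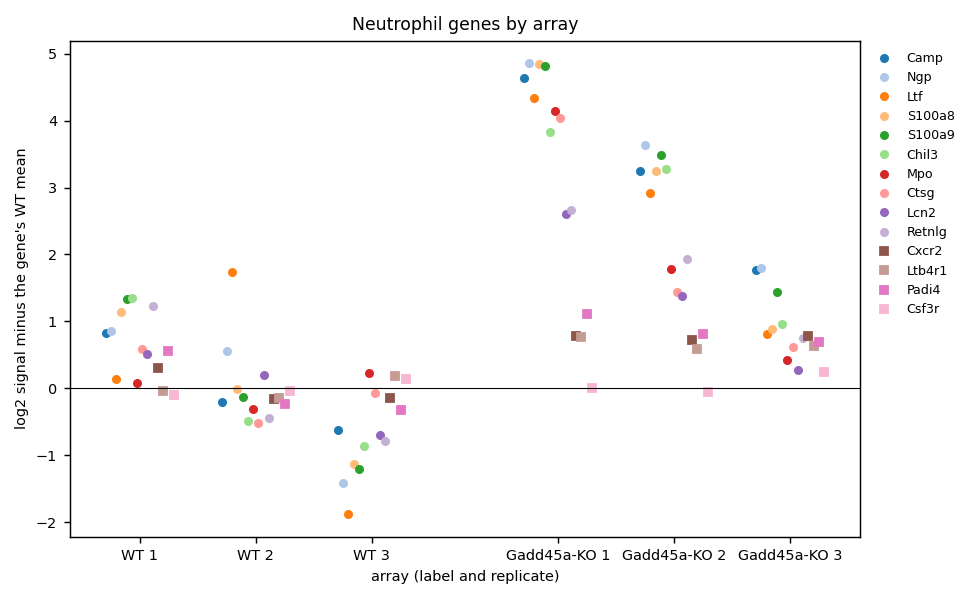
Log2 signal of 14 neutrophil genes on the 6 arrays, each minus the gene's own WT mean. Cxcr2, Ltb4r1, Padi4 and Csf3r are squares and the other genes circles, and genes were picked with their values known. In the arrays labelled Gadd45a-KO, Camp, Ngp, Ltf, S100a8, S100a9, Chil3, Mpo and Ctsg are highest in replicate 1 and lowest in replicate 3. Cxcr2, Ltb4r1 and Padi4 vary little between these 3 arrays.

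Macrophage genes leaned upward. Csf1r, the receptor that keeps macrophages alive, read 14.49, 14.38 and 14.21 in WT and 14.85, 14.96 and 14.76, and differed by 0.50 ± 0.12, with other probes at 0.51 and 0.06. Cx3cr1, the fractalkine receptor of monocytes, differed by 0.42 ± 0.15, and its ligand Cx3cl1 by 0.29 ± 0.11. Il1b, interleukin 1 beta, read 7.04, 6.15 and 6.32 in WT and 7.52, 7.64 and 7.12, a difference of 0.93 ± 0.26. Socs3, the feedback inhibitor of cytokine receptors, differed by 0.65 ± 0.16, and Saa3, an acute phase gene made in fat, by 1.75 ± 0.58. Il1b, Socs3 and Saa3 are of the acute phase list, whose 16 tested genes had a median of 0.19 with 10 positive. With limma 4 of the 16 were higher and 3 lower at an unadjusted p under 0.05 (background 1.54% and 0.808%). Orm2 and Orm3, at -0.79 and -0.71, were among the lower. Of 25 macrophage genes 19 were positive with a median of 0.31, and 5 did not overlap upward (background 5.49%). The median was 0.01 within slide 1 and 0.56 within slide 2.

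Dendritic cell and lymphocyte genes were mostly on the positive side. Of 21 Langerhans and dendritic cell genes 19 were positive with a median of 0.22, and 6 did not overlap upward (background 5.49%). Epcam, which is shared by Langerhans cells and epithelia, read 5.30, 4.50 and 5.29 in WT and 6.11, 5.45 and 8.03, a difference of 1.5 ± 0.51 that was 0.75 without Gadd45a-KO replicate 3 and 0.70 with normexp. Itgax, the integrin CD11c, differed by 0.44 ± 0.23, Xcr1 by 0.58 ± 0.34 and Irf8 by 0.31 ± 0.21. In all 3, WT replicate 2 was the lowest of the WT arrays, and the differences within slide 2 were 0.87, 1.21 and 0.39. All 18 T cell genes tested and all 16 natural killer genes were positive, with medians of 0.20 and 0.26. The groups were apart for 0 of either list (background 5.49% upward). The natural killer list's mean deviation was 0.55, -0.25 and 0.35 in WT against 0.39, 0.44 and 0.55, so WT replicate 2 stood alone. The T cell list's was 0.25, 0.03 and 0.51 in WT against 0.35, 0.36 and 0.67. Of 18 B and plasma cell genes 17 were positive with a median of 0.19, and Jchain, the joining chain of secreted antibodies, differed by 1.01 ± 0.36 with 2 of the 3 arrays labelled Gadd45a-KO above the WT arrays. MHC class II genes had a median of 0.21, with H2-Aa at 0.47 ± 0.21. Within slide 1 the natural killer median was -0.25, and that of interferon-stimulated genes, 0.12 over all 6 arrays, was -0.10. With single arrays left out, the lowest medians were 0.01 (natural killer), 0.09 (T cell) and -0.02 (interferon-stimulated).

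Mesothelial, mast cell and muscle transcripts also differed between arrays. Slpi, a protease inhibitor of epithelia and neutrophils, read 9.20, 8.25 and 9.46 in WT and 12.08, 12.36 and 10.04, and differed by 2.53 ± 0.63. The keratin genes Krt18 and Krt19 differed by 1.70 ± 0.83 and 1.35 ± 0.51, or by 0.94 and 0.85 without Gadd45a-KO replicate 1. Krt8, not well above background on any WT array, was at least 1.54-fold higher on average in the main processing. Its measured means were 1.66 apart, or 0.93 without that array and 0.44 with normexp, where the bound did not hold. Its groups overlapped, and it was well above background on 2 of the 3 arrays labelled Gadd45a-KO. Of the 20 mesothelial genes, 13 were tested and 10 were positive with a median of 0.36, and 4 did not overlap upward (background 5.49%). Among the 3 negative genes was Cldn15, at -0.55 ± 0.25 with overlapping groups. The list's mean deviation was 0.03, -0.45 and -0.23 in WT and 0.81, 0.40 and 0.12 in the arrays labelled Gadd45a-KO. The defining genes Msln, Upk3b, Upk1b and Wt1 were too dim to test, and the part of mesothelial cells in these differences was not tested. Fcer1a, the mast cell IgE receptor, and Tph1, a serotonin enzyme, differed by 1.63 ± 0.52 and 1.65 ± 0.42, or by 0.57 and 0.74 with normexp background correction. Tph1 differed by 1.06 without Gadd45a-KO replicate 3, and 10 of 12 mast cell genes were positive with a median of 0.36. Skeletal muscle transcripts stood at 0.85 in the array labelled Gadd45a-KO replicate 1 and at -0.34 to -0.63 in the other 5. In the second pair of groups they stood at 2.59 in Ing1-KO replicate 1 and 1.82 in DKO replicate 1, both on slide 1. The rest of those groups lay at -0.63 to -0.70.

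Fat cell genes were lower on average, and this rested largely on 1 WT array. All 26 white adipocyte markers had a negative difference with a median of -0.26, and 1 did not overlap downward (background 2.58%). That gene was Retn, which encodes resistin, with 16.85, 17.16 and 16.40 in WT and 16.32, 16.21 and 16.24. Adipoq, the adiponectin gene, differed by -0.35 ± 0.25 and Lpl, lipoprotein lipase, by -0.27 ± 0.16. The list's mean deviation was -0.24, 0.26 and -0.37 in WT against -0.16, -0.43 and -0.56, so WT replicate 2 stood alone. Without it the median was -0.05, and within slide 2 it was -0.70.

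Lipid synthesis genes were lower on average, by an amount that moved with WT replicate 2 and the array labelled Gadd45a-KO replicate 3. The list's mean deviation was -0.20, 0.47 and -0.29 in WT and 0.04, -0.31 and -0.92 in the arrays labelled Gadd45a-KO. All 25 lipogenesis genes were negative with a median of -0.38, and in 0 of them were the groups apart (background 2.58% downward). Fasn, fatty acid synthase, read 14.60, 15.54 and 14.52 in WT and 14.80, 14.41 and 13.47, a difference of -0.66 ± 0.34, and Scd1, the stearoyl desaturase, differed by -0.40 ± 0.18. Insig1, a sterol-sensing brake on lipid synthesis, read 10.97, 11.59 and 11.28 in WT and 11.15, 10.79 and 9.56. The lipogenesis median was -0.16 without WT replicate 2 and -0.14 without Gadd45a-KO replicate 3, and it was 0.25 within slide 1. Fatty acid oxidation and oxidative phosphorylation genes had medians of -0.15 and -0.15, with 1 of 25 and 1 of 27 positive, and both were positive within slide 1, at 0.19 and 0.17. Cholesterol synthesis genes had a median of -0.22 with 16 of 18 negative. Brown and beige fat genes had a median of -0.08, and Ucp1, the uncoupling protein, ranged from 10.18 to 13.93 over the 6 arrays with overlapping groups.

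Cell division genes were all on the positive side, by small amounts. Of 26 tested 26 were positive with a median of 0.27 and a range of 0.04 to 0.51, 11 did not overlap upward (background 5.49%), and 0 had an unadjusted p under 0.05 (background 2.35%). Mcm6, a subunit of the replicative helicase, read 13.10, 12.45 and 13.04 in WT and 13.24, 13.32 and 13.32, and differed by 0.43 ± 0.23. Cdk1, the mitotic kinase, differed by 0.37 ± 0.23. The median was 0.08 within slide 1 and 0.65 within slide 2, which holds WT replicate 2.

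Most genes that work with Gadd45a differed little. Its paralogs Gadd45b and Gadd45g differed by 0.14 ± 0.19 and 0.11 ± 0.22, with overlapping groups. Gadd45gip1, of the same list, differed by -0.08 ± 0.17. A second Gadd45gip1 probe, well above background on 2 WT arrays, gave 0.61 ± 0.24. Map3k4, the kinase that Gadd45 proteins activate, differed by 0.13 ± 0.11, and the 20 stress kinase genes had a median of -0.02 with 10 positive. Among the 23 tested genes of the p53 list, which holds Cdkn2a, 17 were positive with a median of 0.07. The groups did not overlap upward for 5, Cdkn2a among them (background 5.49%). Cdkn2a, the cell cycle inhibitor locus of senescent cells, read 7.26, 7.12 and 7.46 in WT and 8.0, 8.01 and 7.93, and differed by 0.70 ± 0.30, while Cdkn1a, the main p53-induced inhibitor, differed by -0.16 ± 0.27. Of 19 senescence genes 13 were positive with a median of 0.13.

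Of the 28 DNA methylation and demethylation genes, 18 were positive with a median of 0.06, 3 did not overlap upward (background 5.49%) and 2 had an unadjusted p under 0.05 (background 2.35%). The 3 were Zbtb33, Uhrf1 and Mbd1, chosen after their values were seen. They stood beside Tet1, Tet2 and Tdg at -0.18 ± 0.14, -0.02 ± 0.10 and 0.06 ± 0.19. Dnmt3l, a cofactor of the de novo methyltransferases, differed by -1.03 ± 0.46, but read 7.93 on slide 1 in the array labelled Gadd45a-KO against 7.67 in WT. Apobec2, of the APOBEC family, was well above background on 1 of the 6 arrays, WT replicate 2 at 8.20, against 1.47 to 2.66 on the other 5. The 21 nucleotide excision repair genes had a median of 0.09 with 17 positive, and Pcna, the sliding clamp that Gadd45a binds, differed by 0.21 ± 0.13. Cebpd, a C/EBP factor of inflammation and early fat cell development, read 12.29, 12.33 and 12.33 in WT and 12.78, 12.58 and 12.93, and differed by 0.45 ± 0.13. Cebpa, which is needed for mature fat cells, differed by -0.28 ± 0.22.

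Genes near Gadd45a were counted apart from the rest. Within 20 Mb of Gadd45a on chromosome 6, by the distance between gene start positions in GRCm38.p6, 227 genes were tested and 0 were called. The groups did not overlap for 26 of them (11.5%), against 8.07% of all features, and 12 had an unadjusted p under 0.05 (5.29% against 2.35%). Their median difference was 0.0. Cd207 and Inmt lie in this window, as do Mmrn1, a lymphatic endothelial glycoprotein at 0.97 ± 0.32, and Tmem176b, a membrane protein of dendritic cells at 0.35 ± 0.12. Cd207 and Prr15 were the 2 genes of the window whose groups did not overlap in the same direction in both comparisons on separate arrays, 0.881% against 0.149% of all features. Prr15 differed by -0.52 ± 0.22 and by -0.71 in the second comparison.

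The remaining lists lay near the level of all features or were small. The 8 eosinophil genes had a median of 0.21, the 10 CXC chemokines 0.20, the 4 genes of the Gadd45 family list 0.12 and the 7 C/EBP factors -0.07. Extracellular matrix, adipocyte progenitor, circadian clock and immediate early genes had medians of -0.05, -0.02, 0.0 and -0.02. The 20 endothelial genes had a median of -0.13 with 5 positive, and Plvap, a protein of capillary fenestrae, read 12.53, 12.88 and 12.53 in WT against 12.91, 13.0 and 13.0. Of 25 epididymis and testis genes 7 were bright enough to test, with a median of -0.25, and 17 were too dim.

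The second comparison, DKO against Ing1-KO, sets arrays labelled DKO against arrays labelled Ing1-KO, which by their labels differ in Gadd45a, and shares no array with the first. With limma it called 1 of 31453 features (0.00318%), the Gadd45a probe itself, higher in DKO by 1.41 ± 0.13 with an adjusted p of 0.00618, and 1103 had an unadjusted p under 0.05 (3.51%). The count was 0 with only the arrays compared, with the array column as a block, and without Ing1-KO replicate 2 or 3 or DKO replicate 2, and it was 3 without DKO replicate 1 and 2 without DKO replicate 3. Its groups did not overlap for 2785 features (8.85%), 1612 higher in DKO (5.13%) and 1173 lower (3.73%). On the positive side lay 16278 features, and the median over all features was 0.01. The test of the difference between the 2 comparisons called 0, with 1866 at an unadjusted p under 0.05 (5.93%). Over all features 33.3% had the same sign in both comparisons, and the log2 differences correlated at -0.298 across genes, which are not independent replicates. The groups were apart in the same direction in both comparisons for 47 features (0.149%) and in opposite directions for 178 (0.566%).

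Of the named genes, Cd207 repeated its direction. It read 7.10, 6.51 and 6.65 in Ing1-KO and 7.72, 7.56 and 8.36 in DKO, with no overlap and a difference of 1.13 ± 0.26. Of the 12 genes higher in the first comparison, Gadd45a and Cd207 were the 2 with the same sign in the second, and of the 12 lower genes Inmt was the 1, at -0.76 ± 0.42 with overlap. Ccl12, Epb41l3 and Smc1b were lower in DKO without overlap, with Ccl12 at -0.52 ± 0.15, and Pdgfrl and Nanog were higher without overlap, with Pdgfrl at 0.99 ± 0.25. The differences between the 2 comparisons for the 24 genes had adjusted p of 0.633 to 0.789 in limma, so none was called.

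The gene lists also had other values in the second comparison. The neutrophil median was -0.04 there, with Camp at -0.60 ± 0.64 and S100a9 at -0.26 ± 0.78, and the mesothelial median was 0.06. White adipocyte markers had a median of 0.24 with 26 of 26 positive, lipogenesis 0.22, fatty acid oxidation 0.42 and oxidative phosphorylation 0.35 with 27 of 27 positive. Cell division genes had a median of -0.49 with 1 of 26 positive, and T cell genes -0.53 with 0 of 18. The lists were not tested for a difference between the comparisons.

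**Figure D4:**
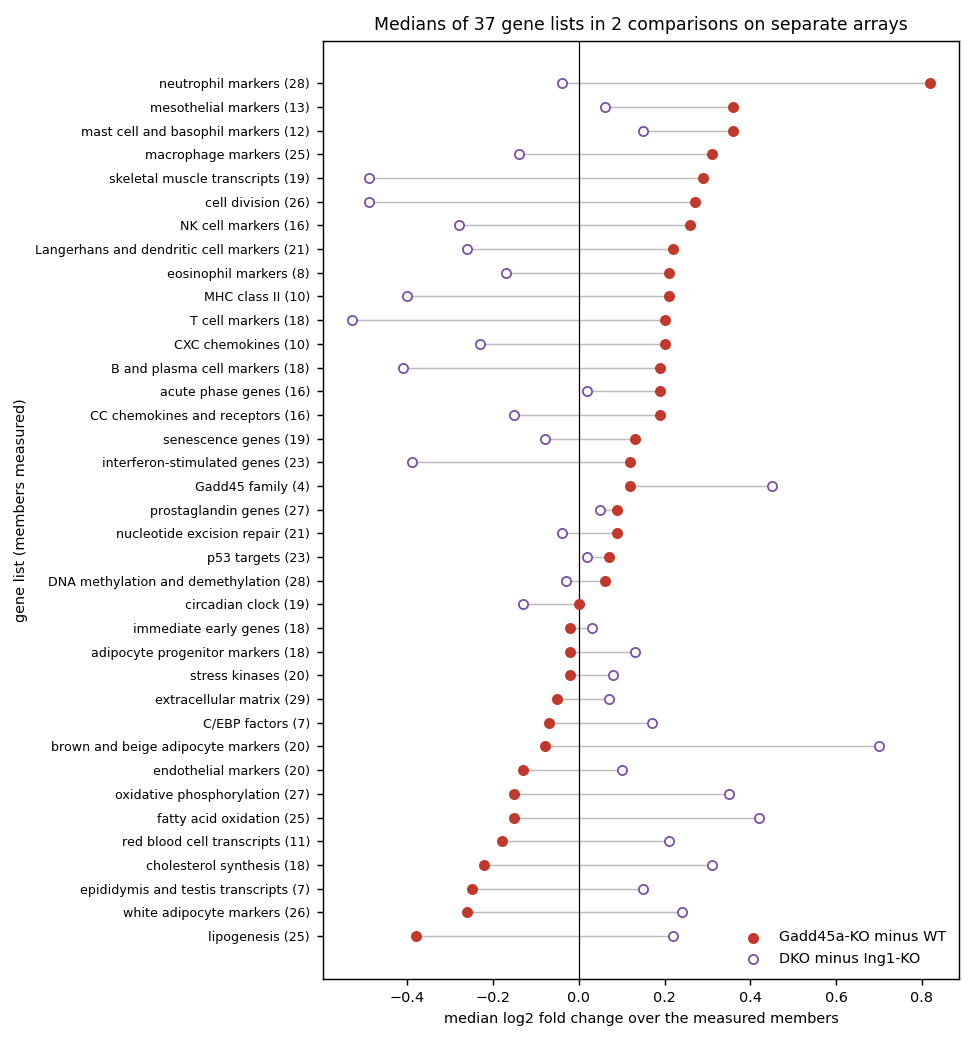
Median log2 difference over the measured members of 37 gene lists (number measured in brackets), in the comparison of arrays labelled Gadd45a-KO with WT (filled) and of DKO with Ing1-KO (open). The neutrophil list stands highest in the first at 0.82 and near 0 in the second, and the lipogenesis list lies lowest in the first at -0.38 and at 0.22 in the second.

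**Figure D5:**
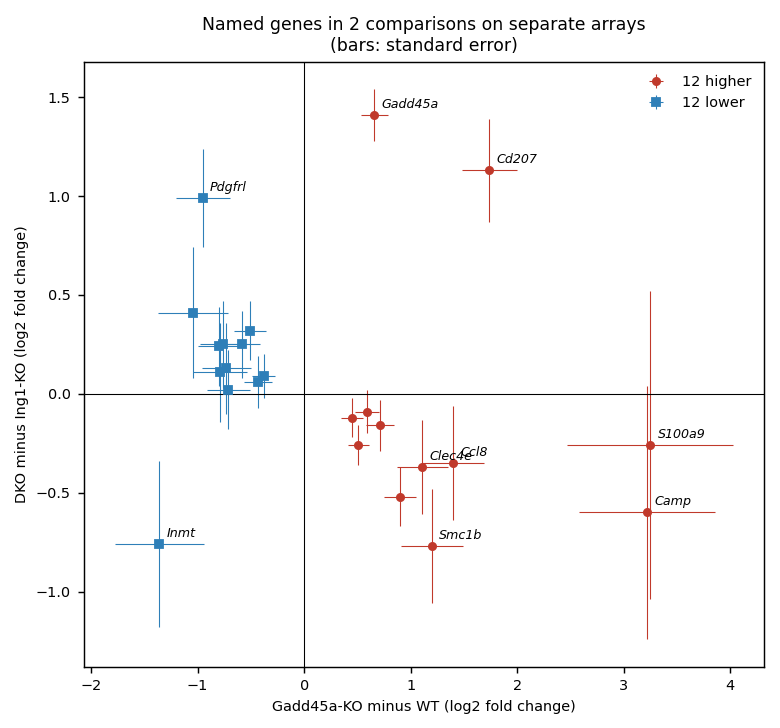
Log2 difference of the 24 named genes in the first comparison (horizontal) and the second (vertical), with standard errors as bars. Gadd45a and Cd207 are the 2 genes in the upper right corner, Inmt is the 1 at the lower left, and the other genes have opposite signs in the 2 comparisons.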

How the data were processed

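RNA of gonadal fat was hybridised to one-colour arrays, 3 per genotype. Per the file headers, the deposited scanner files hold intensity values from Feature Extraction 10.7.3.1, background-subtracted and not scaled between arrays. The deposited value table is in log2 units, and per the submitters' processing notes limma 3.26.9 was used for it; its scaling is not stated, its columns ran in the scanner files' direction (own array r of at least 0.843, other arrays at most 0.422), and column medians were 7.82 to 7.847. It served as an alternative.

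Marked spots were dropped, log2 signals averaged per probe and shifted to a common 75th percentile. A probe had to be well above background in 3 or more of the 12 arrays, and the brightest probe stood for each gene, leaving 15954 named genes and 15499 unnamed probes. Of 29150 probes with a RefSeq accession 27509 were named from GRCm38.p6; the array grid was made on an older assembly. limma 3.58.1 in R 4.3.3 was fitted to all 12 arrays with 4 genotype means, an intensity trend and robust moderation, which leaves 8 residual degrees of freedom, with two-sided p and Benjamini-Hochberg adjustment over all features. The fit was tested on simulated data.

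A bound ("at least") sets the brighter group's mean against, on each array of the dim group, the higher of the lowest signal called above background and the probe's own. That mean takes in arrays not well above background, and the bound applies to the main processing only. Named were Gadd45a, the 12 genes of smallest p each way (clones, predicted genes and unnamed probes passed over), up to 8 or 4 members of smallest p per list, and up to 4 genes near Gadd45a; some genes are not reported here, and further list members, Saa3, Ucp1 and Prr15 among them, were chosen after their values were seen. The members and 37 lists were chosen with earlier results of these data known. Same-numbered arrays share a slide, but not every such pair deviated together (r of -0.276 to 0.424 over 18 pairs, and -0.359 to 0.311 over the 36 pairs of other numbers), so no pairing was used. Other scalings, background corrections, filters, probes, blocks and left-out arrays were tried. Spread is between pools of 3 animals, and p-values measure it alone.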

Additional observations from a re-analysis of the deposited data

How the results depend on the processing

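The count of 0 in Gadd45a-KO against WT held under every alternative run, except that 1 gene, 1700113H08Rik, was called without WT replicate 3 (log2 difference -3.0 ± 0.28, adjusted p = 0.012 in limma), a range of 0 to 1 with single arrays left out. With the replicate block, which is the slide, the count was 0 too, with features at an unadjusted p under 0.05 going from 739 to 1099, and from 1103 to 1733 in DKO against Ing1-KO, and the block changed no call. In DKO against Ing1-KO the count of 1 became 0 with only the arrays compared and with the array column as a block, and ranged from 0 to 3 with single arrays left out: 0 without Ing1-KO replicate 2 or 3 or DKO replicate 2, 3 without DKO replicate 1 and 2 without DKO replicate 3. The test of the difference stayed at 0. The causes were not tested.

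The neutrophil median of 0.82 was 0.29 with a filter on all 12 arrays, which leaves 20 members, 0.49 with normexp and 0.54 in the authors' values. The mesothelial median of 0.36 was 0.15 with no filter and 0.23 with normexp, and the cell division and T cell medians were 0.11 and 0.04 when array column was a block. Within single slides the mesothelial median was 0.72 on slide 2, the white adipocyte median -0.70 on slide 2, the lipogenesis median 0.25 on slide 1, and the cell division median 0.08 on slide 1 and 0.65 on slide 2. With single arrays left out the ranges were 0.67 to 0.85 (neutrophil), 0.25 to 0.44 (mesothelial), -0.37 to -0.05 (white adipocyte), -0.57 to -0.14 (lipogenesis) and 0.14 to 0.39 (cell division).

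Of 177 genes under 25 other fits, 10 values took the other sign, each with 1 array left out, and 0 genes passed the threshold. Within single slides, 67 of 531 values, in 63 genes, had the other sign. With single arrays left out, the lowest and highest values were -0.02 and 0.23 for Gadd45b, -0.19 and 0.11 for Gadd45gip1, -0.42 and 0.02 for Etfb, -0.31 and 0.01 for Cox4i1, -0.29 and 0.0 for Ndufa4, -0.37 and 0.02 for Cry2, and -0.02 and 0.44 for Myc, where the other sign came without WT replicate 2. They were -0.13 and 0.27 for Gadd45g, -0.42 and 0.01 for Hbb-bt, and -0.02 and 0.18 for Ing1, where it came without Gadd45a-KO replicate 3. Signal over background limits the dim genes, and 3 arrays a group limit the precision of all.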
